A study of Mus musculus with 24 samples.

Results

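St8sia2, St8sia3, St8sia4 and St8sia6 encode the sialyltransferases that join sialic acid to sialic acid on glycoproteins. They were picked by matching the transcript identifier of each probe set to a gene, and all 4 genes were found, with 1 probe set each, among 1246 probe sets for 909 named genes. Whole retinas of mice with and without the P347S rhodopsin mutation, a transgenic model in which rod photoreceptors die slowly, were measured on an Affymetrix array for glycan-related genes. The mutant groups are labelled RP Mutant, P347S+, and the normal groups Normal, P347S-, and each genotype had 3 arrays per age, at 1, 2, 3 and 4 months (24 arrays in 8 groups). The labels give sex as unknown, and the strain, the promoter driving the transgene and any pooling of retinas are not given in the sources used here. All values are log2 signals as deposited, so a difference of 1 would be a doubling, and levels of different probe sets are not compared with each other.

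Alpha-linked chains of sialic acid are built in the Golgi apparatus from the activated donor CMP-sialic acid. St8sia2 and St8sia4 are the polysialyltransferases, which add long chains mainly to the neural cell adhesion molecule NCAM. Polysialic acid is known to weaken adhesion between cells and to be abundant in developing neural tissue, where St8sia2 predominates, whereas St8sia4 is the main enzyme of the adult brain. St8sia3 and St8sia6 add only short chains: St8sia3 acts on glycoproteins and glycolipids and is known from brain, and St8sia6 prefers sialylated O-glycans.

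The RefSeq promoter table (build GRCm38.p6) held St8sia4, St8sia6 and St8sia2, 3 of the 4 genes. The 250 bases before the start of St8sia4 and of St8sia6 are printed 5′ to 3′ on the minus strand, on which both genes lie, because Pearson's correlation between their signals over the arrays was the highest among the pairs of the 4 genes. They are chr1:95667595-95667844 for St8sia4 and chr2:13793521-13793770 for St8sia6. The start is the one the table gives; the gene records of the same build reach farther upstream, so that the whole St8sia6 window and 123 of the 250 bases of the St8sia4 window lie inside the outer bounds of the genes. Capitals mark matches to a GC box (GGGCGG, or CCGCCC on the other strand) or a CCAAT box (CCAAT or ATTGG).
St8sia4: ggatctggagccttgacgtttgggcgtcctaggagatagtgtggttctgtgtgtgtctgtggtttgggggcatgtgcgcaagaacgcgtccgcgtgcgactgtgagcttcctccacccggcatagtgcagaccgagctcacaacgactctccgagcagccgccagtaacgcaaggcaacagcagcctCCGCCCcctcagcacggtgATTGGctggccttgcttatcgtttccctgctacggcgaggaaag
St8sia6: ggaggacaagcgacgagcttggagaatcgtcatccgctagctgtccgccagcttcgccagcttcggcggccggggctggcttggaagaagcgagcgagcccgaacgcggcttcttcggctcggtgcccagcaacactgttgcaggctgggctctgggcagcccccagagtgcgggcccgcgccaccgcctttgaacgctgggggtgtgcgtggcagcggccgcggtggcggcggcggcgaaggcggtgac
The St8sia4 window held 1 GC box and 1 CCAAT box, the latter 44 bases before the start, with a GC content of 60.4%. The St8sia6 window was richer in G and C, at 70.8%, and held neither motif. The St8sia2 window (chr7:74013683-74013932, minus strand, not printed) held 2 GC boxes and had a GC content of 68.8%. None of the 3 held an E-box (CACGTG, the same on both strands) or a TATA motif (TATAAA or TTTATA). Over 32807 windows of the same length, 32.7% held a GC box, 33.8% a CCAAT box, 6.02% the E-box and 12.4% the TATA motif, and the median GC content was 52.4%. The windows of St8sia4 and St8sia6 therefore shared no match to these motifs, which describes the letters and not the binding of any factor.

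Among the 24 arrays, 3 stood apart by a log2 signal above 10 for Grifin, a gene known from the lens: normal 2-month replicate 2 (11.33), mutant 2-month replicate 2 (11.29) and normal 4-month replicate 1 (10.16). In these 3 arrays St8sia3 read 7.51 to 7.75, St8sia6 4.60 to 5.02, St8sia4 4.40 to 4.58 and St8sia2 7.33 to 7.65. Without them the difference over the ages was 0.46 for St8sia3 (limma, adjusted p = 4.94e-05), 0.21 for St8sia4 (0.117), 0.12 for St8sia6 (0.202) and 0.20 for St8sia2 (0.165). The calls of St8sia3 at 2 months, of St8sia6 at 3 months and of the St8sia3 slope in mutant retinas ended without them (adjusted p = 0.116, 0.0552 and 0.0636). A high log2 signal for Dcn, a proteoglycan gene of connective tissue, was read in 3 arrays, where the others read at most 5.87. They were normal 2-month replicates 2 (6.45) and 3 (6.90) and mutant 4-month replicate 3 (6.51). Normal 2-month replicate 2 was thus high for both Grifin and Dcn. Below the cut of 10, Grifin read 8.77 in normal 1-month replicate 1. It read 7.47 and 7.64 in mutant 2-month replicates 1 and 3, and at most 6.98 in the remaining arrays.

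Of the 4 transferases, St8sia3 had the clearest difference between genotypes: its signal was higher in mutant retinas by 0.44 ± 0.06 (SE) on average over the 4 ages, a fold of 1.36. St8sia6 was higher in mutant retinas at 3 months, and its mutant arrays lay below the normal ones at 2 months. St8sia4 and St8sia2, the polysialyltransferases, passed no test between genotypes, with average differences of 0.21 ± 0.08 and 0.14 ± 0.09. Within mutant retinas rising slopes with age passed for St8sia2, St8sia3 and St8sia6, and each of these calls ended when certain single arrays were left out. No probe set on the array had a slope in normal retinas that passed. The difference between the slopes of the genotypes, a test added after the data were seen, passed for none of the 4 genes. All tests are limma's moderated tests, adjusted by Benjamini-Hochberg over 1246 probe sets at a threshold of 0.05. Separate animals for each array are not stated in the labels, so p-values measure only the spread between these samples.

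**Figure D1:**
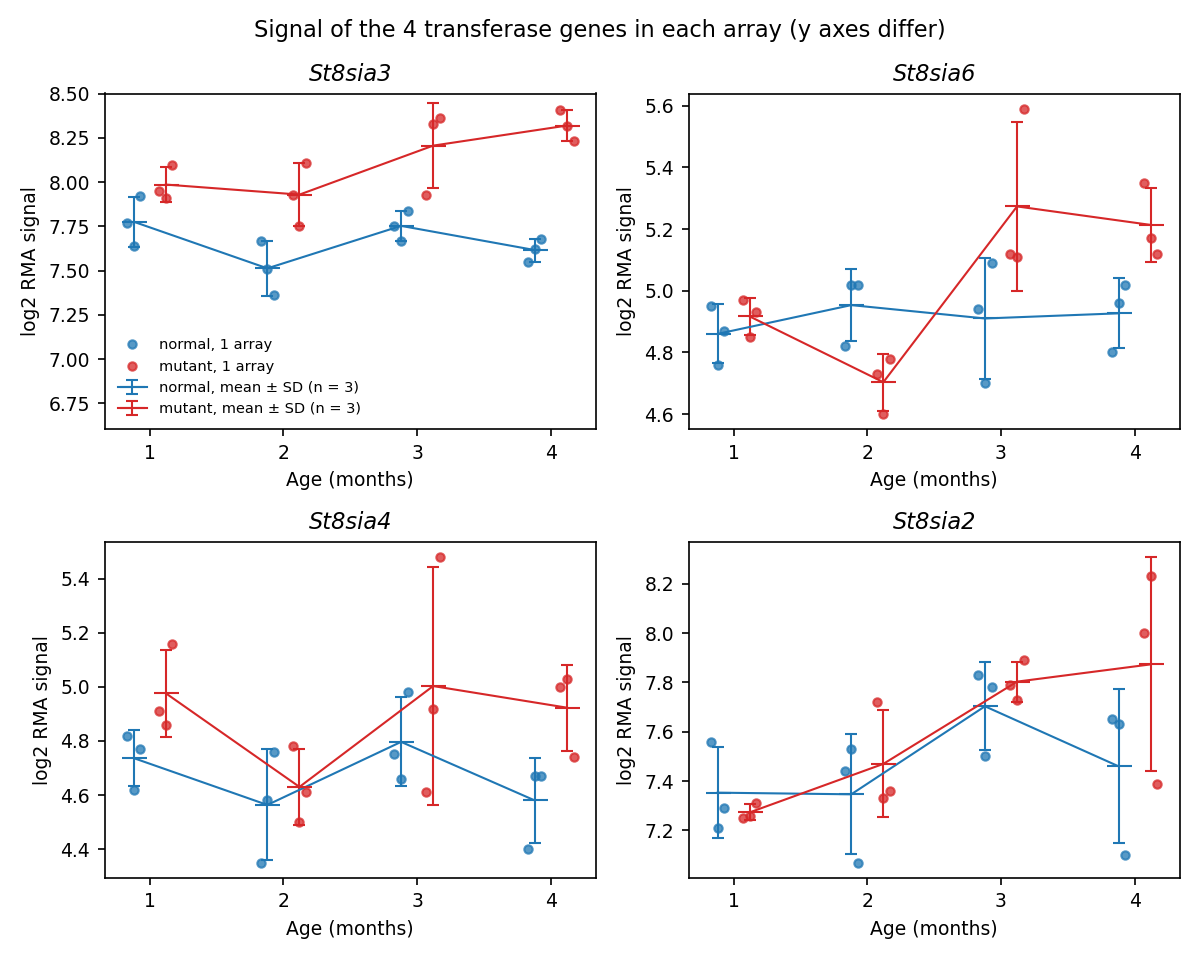
Log2 signal (vertical axis) of St8sia3, St8sia6, St8sia4 and St8sia2 on each of the 24 arrays against age in months (horizontal axis). Points are arrays, lines join the means of 3 arrays with bars of 1 SD, the colours separate normal from mutant retinas, and the vertical axes differ between genes; the St8sia3 mutant arrays lie above the normal arrays at 2, 3 and 4 months, and the St8sia2 arrays of both genotypes overlap at every age.

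The St8sia3 signal in normal retinas was 7.77, 7.64 and 7.92 at 1 month and 7.67, 7.51 and 7.36 at 2 months. At 3 months it was 7.75, 7.67 and 7.84, and at 4 months 7.55, 7.62 and 7.68. Normal retinas thus showed no steady course, and their group means stayed between 7.51 ± 0.15 (SD, n = 3) at 2 months and 7.78 ± 0.14 at 1 month. In mutant retinas the signal was 7.95, 7.91 and 8.10 at 1 month and 7.93, 7.75 and 8.11 at 2 months. It was 7.93, 8.33 and 8.36 at 3 months and 8.41, 8.32 and 8.23 at 4 months. The mutant arrays were therefore all higher than the normal arrays of the same age at 2, 3 and 4 months, and at 1 month only the lowest mutant array (7.91) fell just short of the highest normal array (7.92). Taking all ages, 10 of 12 mutant arrays exceeded every normal array. This count was 6 for St8sia6, 4 for St8sia4 and 3 for St8sia2. It was not taken over all probe sets, so how common such a separation is on the array is not known.

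The St8sia3 difference was 0.21 ± 0.11 (SE) at 1 month and did not pass (adjusted p = 0.637). At 2 months it was 0.41 ± 0.11 (adjusted p = 0.0462) and at 3 months 0.45 ± 0.11 (adjusted p = 0.0140), folds of 1.33 and 1.37. At 4 months it reached 0.70 ± 0.11, a fold of 1.63 (95% confidence interval 1.38 to 1.92, adjusted p = 0.000334). The value at 4 months was thus numerically the highest of the 4, and the change of the difference with age did not pass (F test over the 4 ages, adjusted p = 0.335; difference at 4 months minus that at 1 month 0.49 ± 0.16, adjusted p = 0.157). The average over the ages had an interval of 0.33 to 0.56 and an adjusted p of 6.52e-06. An exact permutation of the genotype labels within each age, over 160000 relabellings, gave a two-sided p of 2.5e-05 for it, where the smallest p possible is 1.25e-05. The call at 2 months was borderline, since leaving out 1 array ended it for 14 of the 24 arrays, 10 of them at other ages, which enter through the shared estimate of the spread and the adjustment. Same-numbered arrays of both genotypes deviated together at 2 months (r between 0.25 and 0.66 in the 3 pairs), and with the replicate number as a block the adjusted p at 2 months was 0.0698. Without normal 2-month replicate 3 the difference at 2 months was 0.34 (adjusted p = 0.220) and without mutant 2-month replicate 3 it was 0.32 (adjusted p = 0.163). With the Grifin and Dcn signals in the fit it was 0.33 (adjusted p = 0.358). From the 6 arrays of that age alone the adjusted p was 0.210. At 3 months the call ended without normal replicate 2 (0.41, adjusted p = 0.0633), mutant replicate 2 (0.39, adjusted p = 0.0656) or mutant replicate 3 (0.37, adjusted p = 0.0758). It also ended with the 6 arrays of that age alone (adjusted p = 0.0878).

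Levels of some cell type markers also differed between genotypes over the 4 ages. Of all probe sets, 22.6% passed in this comparison and 13.8% passed as higher. Of the 10 microglia and macrophage markers looked for, 4 were measured (Csf1r, Cx3cr1, Adgre1 and Siglech) and all 4 rose over the 4 ages, by 0.40 to 0.94. Their summed level, as log2 of the summed linear signals, was 7.99 to 8.37 in normal and 8.66 to 9.66 in mutant retinas. Of 10 genes listed for Müller glia and astrocytes 4 were measured (Vcam1, Icam1, Fgf2 and Cd44), and all 4 rose. Their summed level was 7.54 to 9.01 in normal and 8.19 to 9.64 in mutant retinas. Glul, Rlbp1, Slc1a3, Gfap, Vim and Aqp4 were not matched to a named probe set. The 4 measured genes are not taken as specific to these glia, so their sum is not a level of these cells. Gnb1, a G protein subunit and the only measured one of 9 rod markers, fell by 0.21 ± 0.06 (adjusted p = 0.0121) and ranged from 12.64 to 13.26 in normal and 12.62 to 13.04 in mutant retinas. L1cam, an adhesion molecule of axons and the only measured one of 12 inner retina markers, differed by 0.17 ± 0.09 (adjusted p = 0.172). Of 7 choroid and connective tissue markers 5 were measured, and Cd34 and Mcam rose while Dcn, Lum and Pecam1 did not pass. Their summed level was 7.04 to 7.94 in normal and 7.12 to 7.82 in mutant retinas, and at 1 month 7.04 to 7.30 and 7.40 to 7.47. The part of these levels in the differences of the transferases was not tested, and in whole retina fewer cells of a type and less RNA per cell cannot be told apart. Retinal identity itself rests here on the labels, since Gnb1 is not specific to rods and the other 8 rod markers were not matched to a named probe set.

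The St8sia6 signal, from a probe set whose suffix marks probes that may not be specific to 1 gene, was 4.95, 4.76 and 4.87 in normal retinas at 1 month and 4.82, 5.02 and 5.02 at 2 months. It was 4.94, 4.70 and 5.09 at 3 months and 4.80, 4.96 and 5.02 at 4 months. Normal group means lay within 4.86 to 4.95. In mutant retinas it was 4.97, 4.85 and 4.93 at 1 month and 4.73, 4.60 and 4.78 at 2 months. It was 5.12, 5.11 and 5.59 at 3 months and 5.35, 5.17 and 5.12 at 4 months. The mutant arrays overlapped the normal arrays at 1 month, all lay below them at 2 months and all lay above them at 3 and 4 months. The 3-month mutant array at 5.59 was the highest of all 24.

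The St8sia6 difference was 0.06 ± 0.12 (SE) at 1 month (adjusted p = 0.964) and -0.25 ± 0.12 at 2 months (adjusted p = 0.337). It passed at 3 months, at 0.37 ± 0.12 (fold 1.29, adjusted p = 0.0464), and was 0.28 ± 0.12 at 4 months (adjusted p = 0.130). The average over the ages, 0.12 ± 0.06, did not pass (adjusted p = 0.160; exact permutation p = 0.157). Whether the difference changed with age did not pass over all probe sets (limma's F test, adjusted p = 0.193). The 3-month value rested on few arrays: without mutant 3-month replicate 3 it was 0.21 (adjusted p = 0.239), and without normal 3-month replicate 2 it was 0.26 (adjusted p = 0.222). Leaving out 1 array ended the call for 14 of the 24 arrays, and with arrays weighted by their quality the difference was 0.28 (adjusted p = 0.125). With the Grifin and Dcn signals in the fit it was 0.34 (adjusted p = 0.101). From the 6 arrays of that age alone the adjusted p was 0.191.

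The St8sia4 signal did not pass at any age, although its mutant arrays lay above the normal ones at 1 and 4 months. At 1 month it was 4.82, 4.62 and 4.77 in normal and 4.91, 4.86 and 5.16 in mutant retinas, a difference of 0.24 ± 0.16 (SE; adjusted p = 0.771). At 2 months it was 4.35, 4.58 and 4.76 in normal and 4.78, 4.50 and 4.61 in mutant retinas (0.06 ± 0.16, adjusted p = 0.913). The genotypes overlapped at this age and the next. At 3 months normal arrays read 4.75, 4.66 and 4.98 and mutant arrays 4.61, 4.92 and 5.48 (0.21 ± 0.16, adjusted p = 0.405). At 4 months normal arrays read 4.40, 4.67 and 4.67 and mutant arrays 5.0, 5.03 and 4.74 (0.35 ± 0.16, adjusted p = 0.196). The average over the ages was 0.21, with a 95% interval of 0.04 to 0.38, an adjusted p of 0.0643 and an exact permutation p of 0.0172. This result lay close to the threshold: the adjusted p was 0.0119 without mutant 3-month replicate 1 (difference 0.26), 0.0452 without normal 2-month replicate 3, 0.0445 without normal 3-month replicate 3 and 0.0471 without mutant 4-month replicate 3. It was 0.0343 with each array centred on its median.

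The St8sia2 signal overlapped between genotypes at every age. In normal retinas it was 7.56, 7.21 and 7.29 at 1 month, then 7.44, 7.53 and 7.07 at 2 months, 7.83, 7.50 and 7.78 at 3 months and 7.65, 7.63 and 7.10 at 4 months. In mutant retinas it was 7.25, 7.26 and 7.31 at 1 month, 7.72, 7.33 and 7.36 at 2 months, 7.79, 7.73 and 7.89 at 3 months and 8.0, 8.23 and 7.39 at 4 months. At 4 months 2 mutant arrays lay well above the normal arrays and the third among them. The difference was -0.08 ± 0.18 (SE) at 1 month, 0.12 ± 0.18 at 2 months and 0.10 ± 0.18 at 3 months (adjusted p = 0.966, 0.817 and 0.747). At 4 months it was 0.41 ± 0.18, with an interval of 0.04 to 0.79 and an adjusted p of 0.158, and it moved with single arrays. Without mutant 4-month replicate 3, one of the arrays of high Dcn, it was 0.66 (adjusted p = 0.0108), without normal 4-month replicate 3 0.23 (adjusted p = 0.552) and without mutant 4-month replicate 2 0.23 (adjusted p = 0.522). It was 0.67 with array weights (adjusted p = 0.00662) and 0.51 with the Grifin and Dcn signals in the fit (adjusted p = 0.0491). The average over the ages, 0.14, had an interval of -0.05 to 0.33 (adjusted p = 0.282, exact permutation p = 0.183). The St8sia3 average, 0.44, had an interval of 0.33 to 0.56, and St8sia2 and St8sia3 were not tested against each other.

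**Figure D2:**
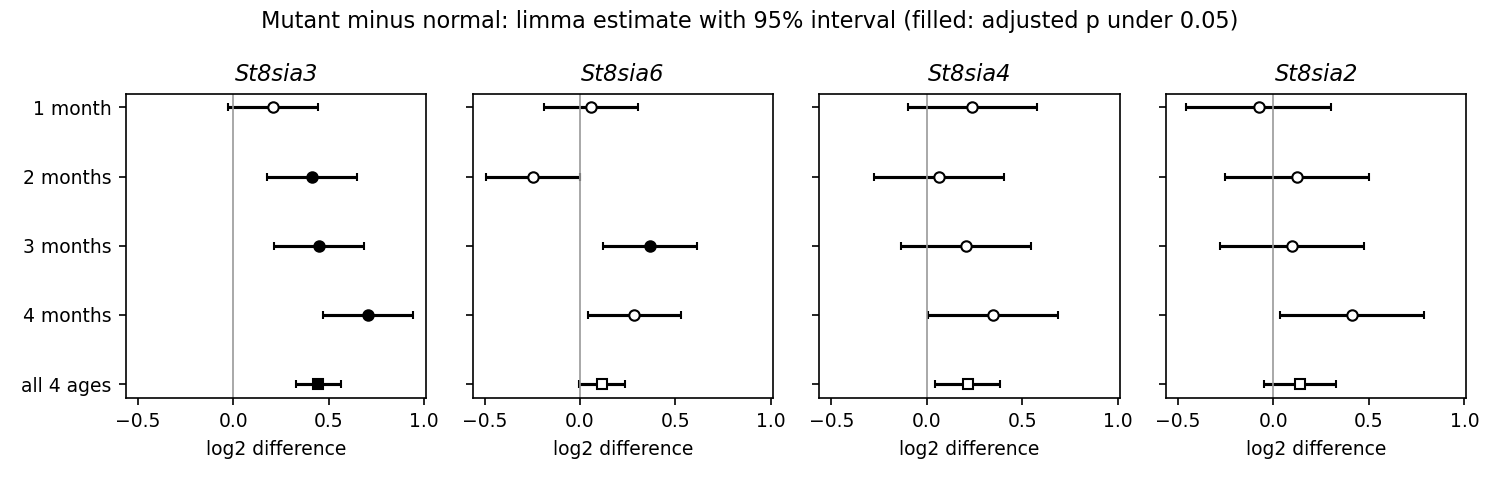
Mutant minus normal difference in log2 signal (horizontal axis) at each age and averaged over the 4 ages (rows), for the 4 transferases. Points are limma estimates and bars their 95% confidence intervals without adjustment, filled points passed at an adjusted p of 0.05; St8sia3 passed at 2, 3 and 4 months and on average, and St8sia6 at 3 months.

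Across the array, 22.6% of probe sets passed between genotypes over the 4 ages and 13.8% were higher in mutant retinas, and 1 of the 4 transferases, St8sia3, was among the latter. At 1 month 0.241% of probe sets passed as higher and none of the 4 did (115 probe sets and none of the 4 had an unadjusted p under 0.05). At 2 months it was 1.52% and 1 of 4 (St8sia3), at 3 months 6.66% and 2 of 4 (St8sia3 and St8sia6) and at 4 months 9.47% and 1 of 4 (St8sia3). In either direction, limma's unadjusted p was under 0.05 over the ages for 444 probe sets and 2 of the 4 genes (St8sia3 and St8sia4). The counts were 180 with 2 of 4 (St8sia3 and St8sia6) at 2 months and 370 with the same 2 at 3 months. At 4 months they were 304 probe sets and all 4 genes. Mutant arrays lay above all normal arrays for 10.4% of probe sets and 1 of 4 transferases (St8sia4) at 1 month, 9.07% and 1 of 4 (St8sia3) at 2 months, 13.2% and 2 of 4 (St8sia3 and St8sia6) at 3 months and 17.1% and 3 of 4 (all but St8sia2) at 4 months. At 2 months 8.35% of probe sets, with St8sia6 among them, had all mutant arrays below the normal ones. From 1 to 4 months the median difference of the 4 genes was 0.13, 0.09, 0.29 and 0.38, against -0.01, 0.01, -0.04 and 0.001 over all named genes.

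With age, 3 of the 4 transferases rose within mutant retinas, where 5.06% of all probe sets had a rising slope that passed. The slope per month was 0.21 ± 0.06 (SE) for St8sia2 (adjusted p = 0.0266), 0.15 ± 0.04 for St8sia6 (adjusted p = 0.0210) and 0.13 ± 0.04 for St8sia3 (adjusted p = 0.0336). The St8sia4 slope was 0.02 ± 0.05 (adjusted p = 0.925), and the slopes of different genes were not tested against each other. In normal retinas the slopes were 0.07 ± 0.06 for St8sia2, 0.02 ± 0.04 for St8sia6, -0.02 ± 0.04 for St8sia3 and -0.02 ± 0.05 for St8sia4, and 0% of all probe sets passed by limma (100 probe sets and none of the 4 had an unadjusted p under 0.05). The slopes of the genotypes were compared in a test added after the data were seen, and none of the 4 genes passed: the difference was 0.15 ± 0.05 per month for St8sia3 (adjusted p = 0.156), 0.14 ± 0.08 for St8sia2 (adjusted p = 0.473), 0.13 ± 0.05 for St8sia6 (adjusted p = 0.280) and 0.05 ± 0.07 for St8sia4 (adjusted p = 0.887), where 1.2% of probe sets passed and 169 probe sets with 2 of the 4 genes (St8sia3 and St8sia6) had an unadjusted p under 0.05. With array weights the slope difference passed for St8sia2 (0.25, adjusted p = 0.0345) and St8sia3 (0.15, adjusted p = 0.0353).

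The slopes in mutant retinas depended on single arrays at the ends of the course and on other settings. For St8sia2 the call ended without any of the 3 mutant 1-month arrays (adjusted p = 0.0732, 0.0973 and 0.0602 without replicates 1, 2 and 3) and without mutant 4-month replicate 1 (0.0976) or 2 (0.148). For St8sia3 it ended without mutant 1-month replicate 1 (adjusted p = 0.0961) or 2 (0.142) and without mutant 4-month replicate 1 (0.120) or 2 (0.0741), and on values quantile-normalized again (slope 0.09, adjusted p = 0.148), with each array centred on its median (0.12, adjusted p = 0.0650) and with the replicate block (0.13, adjusted p = 0.0517). For St8sia6 it ended without mutant 1-month replicate 2 (adjusted p = 0.0973) or mutant 4-month replicate 1 (0.0904), and with the Grifin and Dcn signals in the fit (0.0913). Between the ends of the course alone, 4 months against 1 month, none of the 4 passed in mutant retinas, where 2.65% of probe sets did (188 probe sets and 3 of the 4 genes had an unadjusted p under 0.05). The difference was 0.60 ± 0.18 for St8sia2 (adjusted p = 0.0849), 0.33 ± 0.11 for St8sia3 (adjusted p = 0.128), 0.29 ± 0.12 for St8sia6 (adjusted p = 0.232) and -0.05 ± 0.16 for St8sia4 (adjusted p = 0.963). For St8sia2 it passed under 5 alternatives: quantile normalization (0.55, adjusted p = 0.0319), array weights (0.76, adjusted p = 0.00545), the replicate block (0.60, adjusted p = 0.0141), the Grifin and Dcn signals in the fit (0.70, adjusted p = 0.0310) and without mutant 4-month replicate 3 (0.84, adjusted p = 0.00856). For St8sia3 it passed with array weights (0.36, adjusted p = 0.0282). In normal retinas it was 0.11, -0.16, 0.07 and -0.16 in the same order, and 0% of probe sets passed by limma, with 92 probe sets and none of the 4 genes at an unadjusted p under 0.05. None of the 4 was among the 0.321% of probe sets whose genotype difference changed over the 4 ages by the F test, or the 0.241% whose difference at 4 months departed from that at 1 month. At an unadjusted p under 0.05 the F test took in 180 probe sets with 2 of the 4 genes (St8sia3 and St8sia6), and the comparison of 4 months with 1 month 142 with 1 of the 4 (St8sia3). With array weights the latter passed for St8sia2 (0.83, adjusted p = 0.0268) and St8sia3 (0.50, adjusted p = 0.0299).

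In the order of the 8 group means, St8sia3 ran from normal 2 months (7.51 ± 0.15 SD) through the other normal groups to the mutant groups at 2 months (7.93 ± 0.18), 1 month (7.99 ± 0.10), 3 months (8.20 ± 0.24) and 4 months (8.32 ± 0.09), so every mutant mean exceeded every normal mean. St8sia2 ran from mutant 1 month (7.27 ± 0.03) to mutant 4 months (7.87 ± 0.44), with both 3-month groups and mutant 4 months at the top. St8sia4 ran from normal 2 months (4.57 ± 0.21) to mutant 3 months (5.01 ± 0.44). The ranges of neighbouring groups overlapped throughout these orders. St8sia6 ran from mutant 2 months (4.70 ± 0.09) to mutant 3 months (5.27 ± 0.28). Its neighbours overlapped except between normal 2 months and mutant 4 months, whose means were 0.26 apart.

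Among the 6 pairs of the 4 genes, Pearson's r over the 24 arrays was highest for St8sia4 with St8sia6, at 0.71, but other measures gave another order. Spearman's rho was 0.53 for this pair and 0.66 for St8sia3 with St8sia4. Without the 2 arrays farthest from the St8sia4 median r was 0.53 for St8sia4 with St8sia6 and 0.61 for St8sia3 with St8sia4. For St8sia3 with St8sia6 r was 0.58 without the 2 arrays farthest from the St8sia3 median. That value rests on other arrays and is not set in order with the 0.53 and 0.61. For St8sia4 with St8sia6 r was 0.55 in the 12 normal and 0.73 in the 12 mutant arrays, and 0.83 for the deviations of the arrays from their group means. The mean signals of both probe sets, 4.78 and 4.97, are below the median of all probe sets (5.26), and how far they stand above the arrays' background is not known. Mutant 3-month replicate 3 was the highest array of all 24 for both genes, at 5.48 and 5.59, and also had the highest summed level of the microglial markers, 9.66. Among the other pairs of the 4 genes r over 24 arrays was 0.66 for St8sia3 with St8sia4, 0.57 for St8sia3 with St8sia6 (-0.04 in normal and 0.80 in mutant arrays), 0.51 and 0.50 for St8sia2 with St8sia6 and St8sia3, and 0.36 for St8sia2 with St8sia4. These values describe 6 pairs of probe sets that share arrays, groups and RMA, without a test. The median signal of an array, which lay between 5.15 and 5.34, had an r of 0.11 with St8sia4 and 0.25 with St8sia6. The 0.71 was below the r of St8sia4 with the glycosyltransferase gene Gcnt2 (0.89) and of St8sia6 with the interleukin receptor Il1r1 (0.87), both named after their values were seen.

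**Figure D3:**
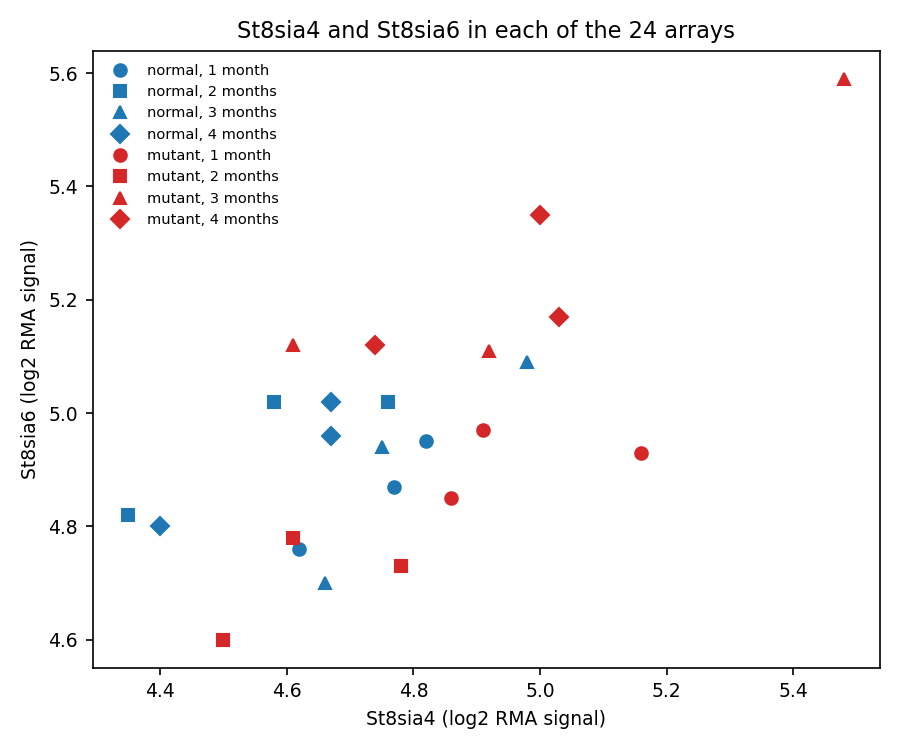
Log2 signal of St8sia6 (vertical axis) against that of St8sia4 (horizontal axis) on the 24 arrays, with colours for genotype and symbols for age. The arrays spread along a rising diagonal, and mutant 3-month replicate 3, at 5.48 and 5.59, lies at its upper end.

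B4galt5, a beta-galactosyltransferase of glycolipid synthesis, had the pattern most like that of St8sia3, with r = 0.91 over the 24 arrays. It was followed by the heparan sulfate sulfotransferases Hs3st5 (0.88) and Hs3st1 (0.88) and the activin receptor Acvr1 (0.87). The most opposite patterns were those of St8sia1 (-0.82) and B4galt1 (-0.79). For deviations from the group means alone r was 0.60, 0.56, 0.84 and 0.48 for the first 4 and -0.32 and -0.16 for the last pair. The correlations were thus weaker within groups, although that of Hs3st1 was nearly as high (0.84 against 0.88).

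The transferases of the same family that act on gangliosides moved in opposite directions. St8sia1, the GD3 synthase, differed by -0.43 ± 0.07 (SE) over the 4 ages (adjusted p = 0.000212), and St8sia5, which makes more highly sialylated gangliosides, by 0.21 ± 0.06 (adjusted p = 0.00835), both from probe sets that may not be specific. St8sia3 and St8sia5 were therefore higher and St8sia1 lower in mutant retinas.

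Of 14 sialyltransferases that cap other sugars 13 were measured, of which 4 rose, 2 fell and 7 did not pass over the 4 ages, where 22.6% of all probe sets passed and 13.8% passed as higher, with a median of 0.10 against -0.02 over all named genes. St3gal4, which caps galactose, rose by 0.32 ± 0.07 (adjusted p = 0.00134), and St3gal6, of similar activity, by 0.35 ± 0.08 (adjusted p = 0.0017). St6galnac2, which acts on O-glycans, fell by 0.30 ± 0.06 (adjusted p = 0.00137), and St3gal1, which makes the sialylated core O-glycan, fell by 0.34 ± 0.07 (adjusted p = 0.0015). The acceptors that St8sia6 extends are made by enzymes of this last kind.

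Over the 4 ages 22.6% of all probe sets passed between genotypes, and the median difference over all named genes was -0.02. Of 6 genes for the donor CMP-sialic acid 5 were measured. Cmas, which activates sialic acid, rose by 0.13 ± 0.04 (adjusted p = 0.0173), Gne, the first enzyme of sialic acid synthesis, fell by 0.18 ± 0.06 (adjusted p = 0.0325), and 3 did not pass, with a median of -0.04. Among the 5 known carriers of polysialic acid only the chemokine receptor Ccr7 was measured (-0.09 ± 0.06, adjusted p = 0.282), and Ncam1, Cadm1, Nrp2 and Glg1 were not analysed here. Of 4 sialidases, which remove sialic acid, 3 were measured and none passed over the 4 ages by limma, nor had an unadjusted p under 0.05. Neu2 differed by -0.05 and Neu1 by -0.04. Of 9 siglecs, lectins that bind sialic acid, Siglech, a microglial member, rose by 0.40 ± 0.07 (adjusted p = 0.000146, from a probe set that may not be specific), Siglec15 fell by 0.12 ± 0.04 (adjusted p = 0.0364) and 7 did not pass, with a median of -0.02.

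**Figure D4:**
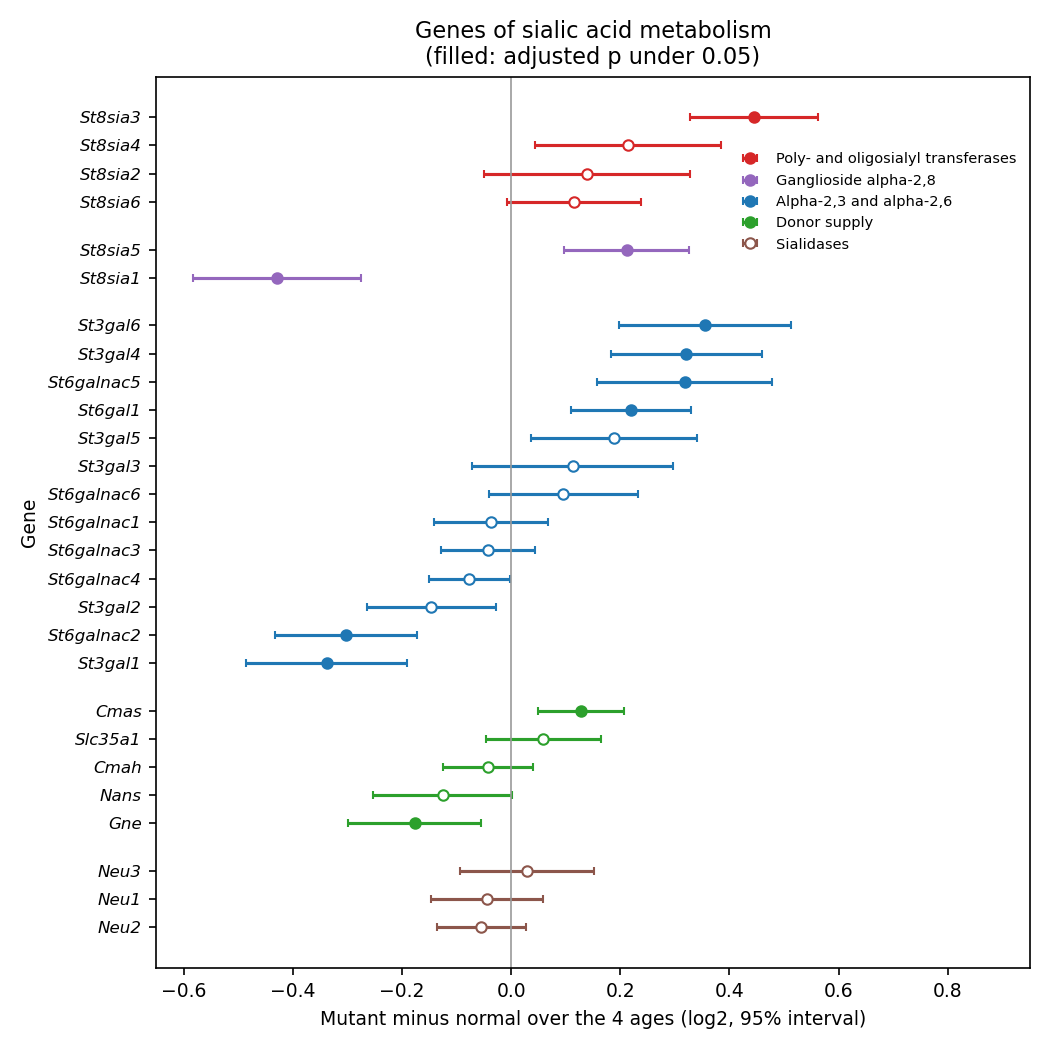
Mutant minus normal difference in log2 signal averaged over the 4 ages (horizontal axis) for the 4 transferases and the measured ganglioside and capping sialyltransferases, donor genes and sialidases, with a line for each gene. Points are limma estimates, bars 95% confidence intervals and filled points an adjusted p under 0.05; St8sia3, at 0.44, is the highest of the sialyltransferases shown and St8sia1, at -0.43, the lowest.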

How the data were processed

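The deposited values are log2 expression values made by the authors with RMA, per the submitters' processing notes; its version and the arrays normalized together are not given in the sources used here. Per the labels' protocols, Trizol was used to extract total RNA, and cRNA was labelled with biotin. Nothing was scaled again. Probe sets were named through their transcript accessions and a table of RefSeq genes (963 of 1246 matched).

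In R 4.3.3, limma 3.58.1 fitted 8 group means to the 24 arrays (lmFit, eBayes, 16 residual degrees of freedom), with adjustment over 1246 probe sets within a contrast and two-sided tests. The slope difference was added after seeing the data. The 4 genes, the lists and the markers were chosen with earlier results of these data known. Of each list up to 4 genes that passed were named by smallest p, or the 2 smallest where none passed; for genes with several probe sets the one with the highest mean was used. Genes of like pattern were named by rule for St8sia3, which passed over the 4 ages. Equal replicate numbers were checked for pairing: deviations of same-numbered arrays correlated above 0.1 in all 3 pairs at 2 months and in no other of the 12 pairs. This cut cannot exclude pairing at the other ages. Alternatives left out each array, rescaled, filtered, weighted arrays or used fewer of them. Promoters are RefSeq's, cut to the 250 bases before the start.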

Additional observations from a re-analysis of the deposited data

Results flagged for a closer look

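For St8sia6 all 3 mutant arrays lay below the normal arrays at 2 months (difference -0.25) and above them at 3 months (0.37) and 4 months (0.28). Of all probe sets, 8.35% lay wholly below at 2 months, and 13.2% and 17.1% wholly above at 3 and 4 months. Without the 3 arrays of high Grifin the 2-month difference was -0.16 (limma, adjusted p = 0.811). The change from 2 to 3 or 4 months was not tested on its own, and the F test of a change over the 4 ages had an adjusted p of 0.193 (limma).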

How the results depend on the processing

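Over the 4 ages St8sia3 stayed called in all 34 alternatives run (0.396 to 0.479, adjusted p 9.91e-07 to 9.28e-05), and at 4 months in all 35 (0.567 to 0.749). At 2 months its call ended in 21 of 35 and that of St8sia6 at 3 months in 19 of 35. St8sia4 over the ages was called with each array centred (0.24, adjusted p = 0.0343) and with the replicate block (0.21, adjusted p = 0.0416), and ran from 0.155 to 0.264 with 1 array left out. Same-numbered arrays correlated above 0.1 at 2 months only. With the replicate block St8sia2 at 4 months was called (0.41, adjusted p = 0.0229). The following values changed sign, and none of them was called under any alternative. With 1 array left out, St8sia2 ran from -0.150 to 0.0249 at 1 month, -0.0125 to 0.213 at 2 months and -0.00526 to 0.159 at 3 months, and St8sia4 from -0.0428 to 0.163 at 2 months and -0.0319 to 0.404 at 3 months. Likewise St8sia4 ran from -0.109 to 0.0392 for mutant 4 minus 1 months, from -0.0415 to 0.00301 for the normal slope and from -0.00199 to 0.0494 for the mutant slope. St8sia2 was -0.159 at 2 months with Grifin and Dcn as covariates and -0.0694 for normal 4 minus 1 months with array weights. St8sia4 was 0.0213 for mutant 4 minus 1 months with array weights, and its normal slope was 0.00386 without the 3 Grifin arrays. The normal slope of St8sia6 was -5.02e-06 with arrays centred. Probe sets called over the ages numbered 282, and 150 at an adjusted p under 0.01. At 1 month the 4 called became 10 with arrays centred, 8 with quantile normalization, 7 with the 25th percentile filter, 52 with array weights, 7 with the replicate block and 28 with the 6 arrays of that age alone. At 2 months 43 became 68 with array weights, 13 at 0.01, 1 without the Grifin arrays, 6 with covariates and 2 with 6 arrays. At 3 months 150 became 50 at 0.01 and 40 with 6 arrays, and at 4 months 161 became 91 and 103. With 1 array left out the counts ran from 237 to 344 over the ages, 3 to 13, 14 to 62, 66 to 168 and 107 to 179 at 1 to 4 months. The cause of these changes was not tested. The signal over background of the 4 probe sets is not known.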
